A study of Homo sapiens with 6 samples.

Results

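Nuclear genes of respiratory complex III, complex IV and ATP synthase were followed in IMR90 fibroblasts that entered oncogene-induced senescence (OIS) with or without depletion of the retinoblastoma protein (RB). The genes were taken from the platform annotation as every symbol starting with UQCR, COX or ATP5, with CYC1, CYCS, SCO1, SCO2 and SURF1 added. This gave 64 genes, of which 61 could be read from a probe set that names no other gene and 54 were bright enough to be tested, out of 19775 genes read and 13398 tested in the series. IMR90 is an established line of human fetal lung fibroblasts, and all cells carried ER:Ras, an H-ras oncogene fused to an estrogen receptor domain that 4-hydroxytamoxifen (4-OHT) switches on. In RB-KD OIS cells 4-OHT was given at 100 nM over 6 days, joined after 2 days by a mixture of siRNAs against RB1. Ctrl-KD OIS cells received the same 4-OHT and a control siRNA directed at luciferase. Growing cells had neither 4-OHT nor siRNA, so that drug, oncogene and transfection cannot be told apart where OIS cells are set against growing cells. Each state had 2 arrays, described by the labels as biological replicates.

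Complex III takes electrons from ubiquinol and hands them to cytochrome c, a small mobile carrier between the mitochondrial membranes. Complex IV, cytochrome c oxidase or COX, passes these electrons to oxygen, and ATP synthase uses the proton gradient that results to make ATP. The catalytic core of complex IV is encoded by mitochondrial DNA and must be fitted with copper and haem A by dedicated assembly factors, whereas the genes described here lie in the nucleus.

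The values are Affymetrix MAS5 signals, which are linear intensities, and a higher signal stands for more of the mRNA that a probe set binds. Signals of different genes are not compared, since probe sets differ in binding. Differences between states were tested with limma on log2 signal, and a gene was called higher or lower where the p value adjusted over all 13398 genes was under 0.05. Values given for a probe set other than the brightest came from a separate limma fit that tested each probe set on its own. Their p values were adjusted over those probe sets, so they are not like for like with the gene values. The brightest COX11 probe set between the OIS states had adjusted p = 0.0449 by gene and 0.0572 in that fit. RB1 itself read 222 and 228 in RB-KD OIS cells, 2578 and 1914 in Ctrl-KD OIS cells, and 2627 and 2528 in growing cells (log2 fold change -3.30, adjusted p = 2.73e-06 for RB-KD OIS versus Ctrl-KD OIS). All 8 fibroblast markers lay above the array median on every array, against 0 of 4 epithelial, 1 of 3 endothelial, 0 of 3 leukocyte and 0 of 3 muscle markers. Summed fibroblast marker signal was 138479.8 to 166667 in RB-KD OIS cells, 120799 to 121209 in Ctrl-KD OIS cells and 196312 to 197082 in growing cells, and 6 of the 8 markers were called lower in Ctrl-KD OIS cells than growing cells. Between the OIS states 3 of them were higher in RB-KD OIS cells, namely LUM (log2 fold change 1.65, adjusted p = 0.000209), COL3A1 (log2 fold change 1.31, adjusted p = 0.000859) and THY1 (log2 fold change 0.57, adjusted p = 0.0129), and 0 were lower. The part of these marker differences in the results was not tested, and fewer expressing cells cannot be told apart from less RNA per cell.

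Of the 54 tested genes, RB-KD OIS cells had 16 lower and 0 higher than Ctrl-KD OIS cells. That is 29.6% and 0%, against 11.6% lower and 12.6% higher over all genes tested. The 54 genes were bright: 33 lay at percentile 90 or higher of all genes tested by mean log2 signal, and their median percentile was 95.9. The main test lets the prior variance follow signal. Shares over all genes, here and below, were not matched for signal and so are not like for like. With the same prior variance for all genes the 16 lower became 3. When every probe set of a gene was averaged, 7 were lower and 1 was higher. At an unadjusted p under 0.05 the higher ones were UQCRC1 and ATP5IF1. The median log2 fold change of the 54 genes was -0.16, against -0.02 over all genes. In Ctrl-KD OIS cells, compared with growing cells, 21 of the 54 genes were higher and 2 were lower, which is 38.9% and 3.70% against 20.5% and 21.2% over all genes. The median there was 0.22, against -0.01 over all genes, and 0.11, against 0.04, under quantile normalization. In RB-KD OIS cells, compared with growing cells, 16 genes were higher and 8 were lower, or 29.6% and 14.8% against 18.5% and 19.0% over all genes. Under quantile normalization this last split became 13 higher and 15 lower, and under median centring, which moved the median of all genes by 0.11, it became 24 and 6. The comparisons share arrays, those of Ctrl-KD OIS cells in the first and second and those of growing cells in the second and the last. The RB-KD OIS arrays enter the first and the last, so a gene lower there in both comparisons does not rest on separate arrays. In all, 9 genes were called both lower in RB-KD OIS and higher in Ctrl-KD OIS cells. The same count was not made over all genes, and the Ctrl-KD OIS arrays enter both calls with opposite sign.

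The count of 16 depended on single arrays. It was 8 without RB-KD OIS replicate 1, 9 without RB-KD OIS replicate 2, 14 without Ctrl-KD OIS replicate 1, 9 without Ctrl-KD OIS replicate 2, and 10 without either growing array. With the 6 arrays left out in turn, 6 of the 16 genes were called each time, namely COX15, SCO2, COX20, ATP5ME, UQCRC2 and COX7C. Of these, COX20, UQCRC2 and COX7C lost the call with the mean of all probe sets and with one prior variance for all genes (adjusted p up to 0.222, 0.118 and 0.0762), COX7C also without probe sets that can bind several transcripts. The count of 21 genes was 12 without growing replicate 1 and lay between 15 and 27 without any other 1 array. The 16 genes higher in RB-KD OIS cells than growing cells became 5 without growing replicate 1, 8 without growing replicate 2 and 7 without RB-KD OIS replicate 1, and the 8 lower ones became 5 without growing replicate 2.

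**Figure D1:**
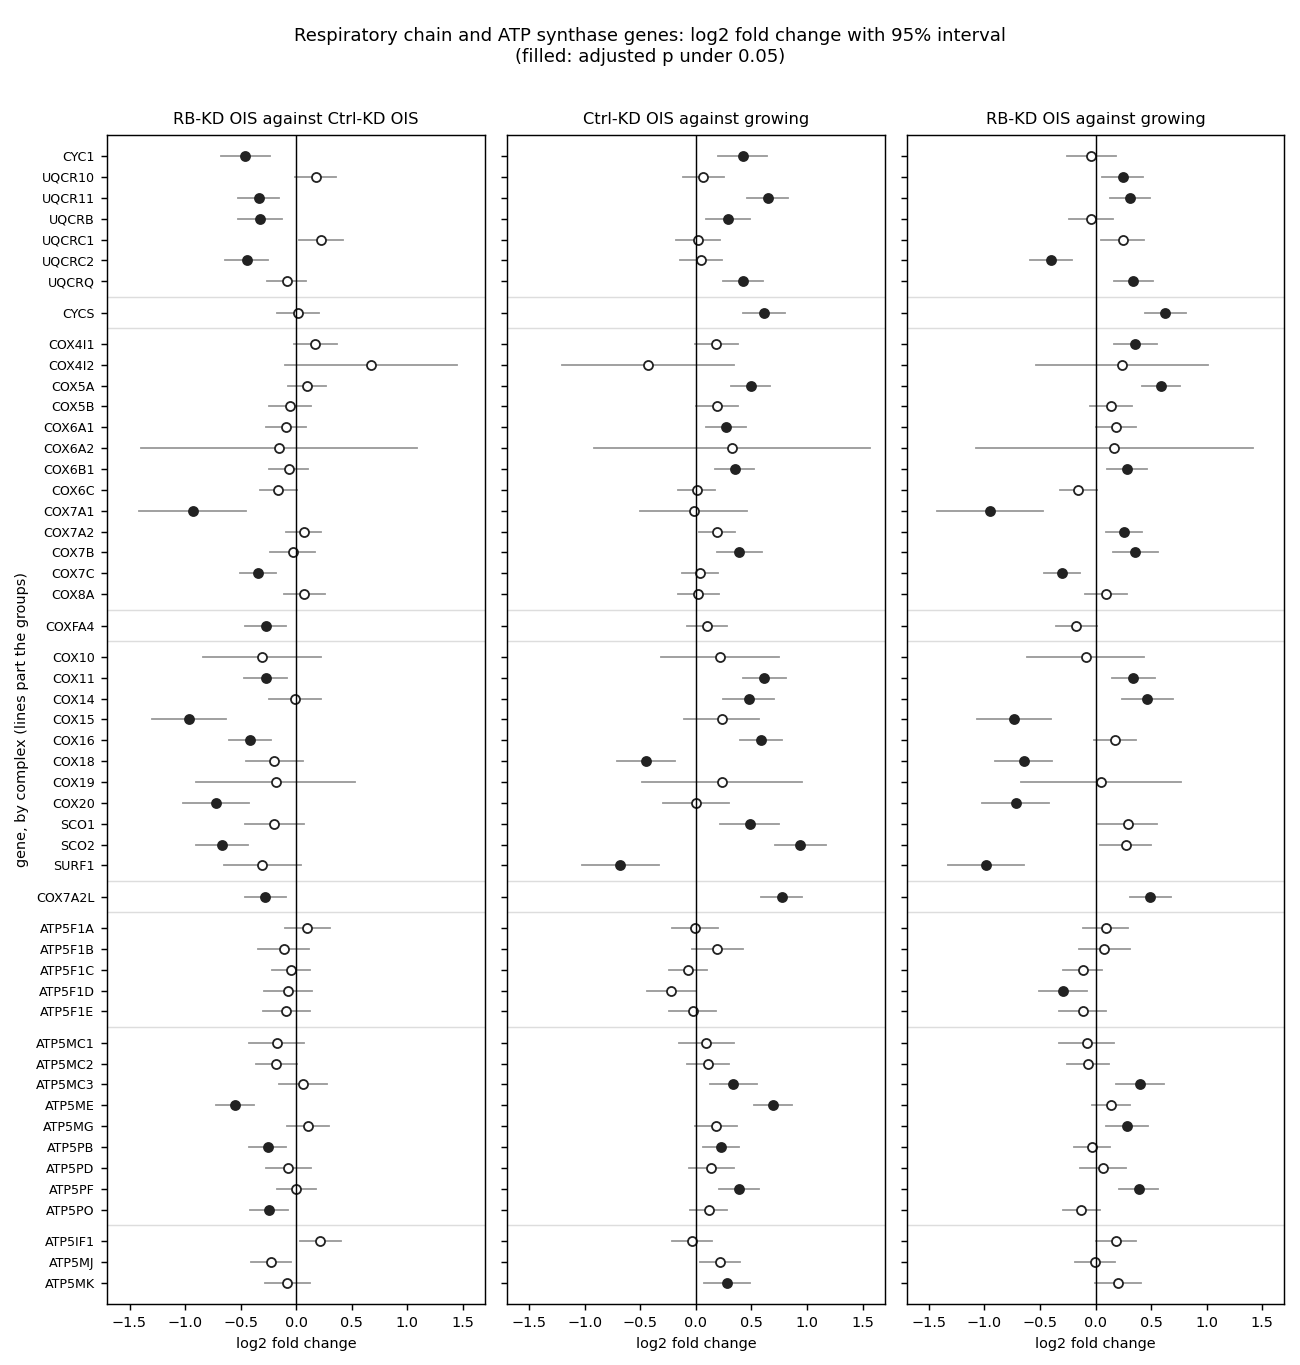
Log2 fold change (x axis) of each tested protein-coding gene (y axis, grouped by complex) with its 95% confidence interval in the 3 comparisons, 2 arrays per state; filled points have an adjusted p under 0.05. COXFA4L3, at 6.21 in Ctrl-KD OIS versus growing cells, lies outside the axis and is left out. The filled points of RB-KD OIS versus Ctrl-KD OIS cells all lie below 0, and most filled points of Ctrl-KD OIS versus growing cells lie above it.

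Counts by complex are given against 11.6% of all genes called lower in this comparison, a share not matched for signal. The complex IV subunits counted here leave out COXFA4, a subunit listed apart with its relatives. Between the OIS states COXFA4 was itself called lower (log2 fold change -0.27, adjusted p = 0.0376), a call that ended without any 1 of 5 arrays. For RB-KD OIS versus Ctrl-KD OIS cells, 4 of 7 tested complex III genes, 2 of 13 complex IV subunits, 5 of 11 COX assembly factors, 3 of 9 genes of the Fo part and stalk of ATP synthase and 0 of 5 genes of its F1 part were lower. Without RB-KD OIS replicate 1 the calls of CYC1 and UQCRB in complex III and of ATP5PB and ATP5PO in the stalk were among those lost, and under median centring 1 of the 9 Fo and stalk genes was called. Median log2 fold changes were -0.33 for complex III, -0.05 for complex IV subunits, -0.30 for assembly factors, -0.17 for Fo and stalk and -0.07 for F1. All 11 assembly factors lay below 0, as did 6961 of the 13398 genes tested. For Ctrl-KD OIS versus growing cells the medians of the same lists were 0.29, 0.19, 0.23, 0.18 and -0.03, and under quantile normalization 0.13, 0.06, 0.39, 0.07 and -0.11. The sign of the F1 median turned under median centring (0.07), which moved the median of all genes by 0.09 in this comparison. These are descriptions of the lists, and the differences between them were not tested.

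**Figure D2:**
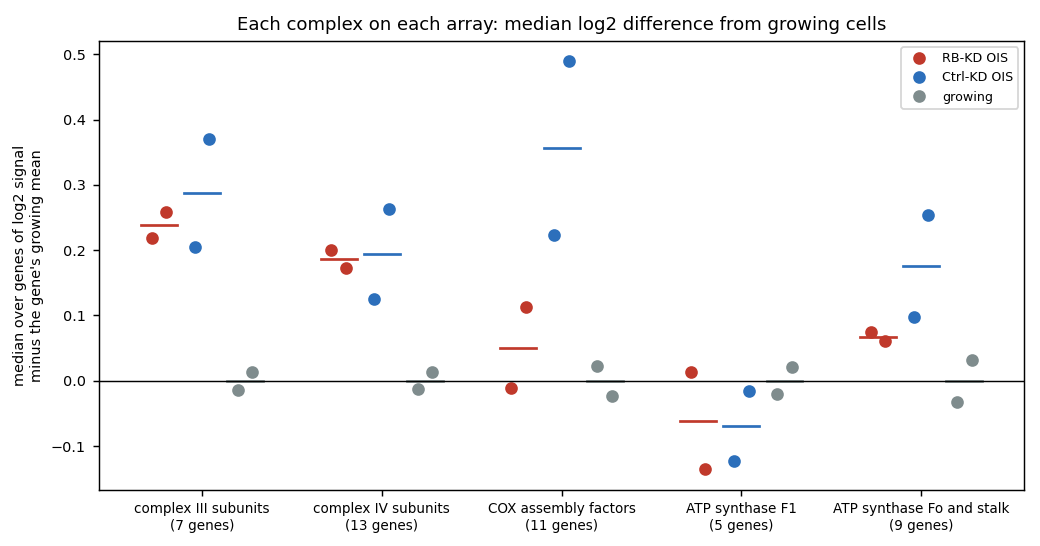
Median over the genes of each list of log2 signal minus the gene's mean in growing cells (y axis) on each array, with a bar at the mean of the 2 arrays of each state. Ctrl-KD OIS replicate 2 stood above replicate 1 in all 5 lists, and in complex III and complex IV the RB-KD OIS arrays lay between the 2 Ctrl-KD OIS arrays.

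Of the 4 largest falls with RB depletion among called genes, 3 were in assembly factors (COX15, COX20 and SCO2) and the other was in the subunit COX7A1. COX15, the enzyme that completes haem A, read 394 and 389.8 in RB-KD OIS cells, 683 and 855 in Ctrl-KD OIS cells, and 626 and 677 in growing cells. Both RB-KD OIS arrays lay below every other array, and the Ctrl-KD OIS arrays lay just above the growing arrays without a call (log2 fold change 0.23, adjusted p = 0.252). COX15 was 0.513 times its Ctrl-KD OIS level in RB-KD OIS cells (log2 fold change -0.96, standard error 0.15, adjusted p = 0.00185) and was also lower than in growing cells (log2 fold change -0.73, adjusted p = 0.00404). Between the OIS states the 3 dimmer COX15 probe sets gave log2 fold changes of -1.08 (adjusted p = 0.00271), -0.87 (adjusted p = 0.0211) and -1.06 (adjusted p = 0.25). In Ctrl-KD OIS versus growing cells the same probe sets gave 0.55 (adjusted p = 0.0323), 0.57 (adjusted p = 0.0653) and -1.31 (adjusted p = 0.109).

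SCO2, which carries copper to the COX2 subunit, read 1936 and 2118 in RB-KD OIS cells, 3012 and 3439.5 in Ctrl-KD OIS cells, and 1706 and 1652 in growing cells. The Ctrl-KD OIS arrays were above all others and the RB-KD OIS arrays were next, so that no states overlapped. The gene was higher in Ctrl-KD OIS cells than growing cells by 1.92-fold (log2 fold change 0.94, standard error 0.10, adjusted p = 8.27e-05) and lower in RB-KD OIS cells than Ctrl-KD OIS cells (log2 fold change -0.67, standard error 0.10, adjusted p = 0.00181). Against growing cells the difference of RB-KD OIS cells missed the threshold (log2 fold change 0.27, adjusted p = 0.0664). Its relative SCO1, which also delivers copper, read 950.4 and 1011 in RB-KD OIS cells, 1063 and 1187 in Ctrl-KD OIS cells, and 834 and 773 in growing cells. The SCO1 states did not overlap either, and the gene was higher in Ctrl-KD OIS cells than growing cells (log2 fold change 0.48, adjusted p = 0.00852), a call that ended without growing replicate 2 (0.43, adjusted p = 0.0729). Between the OIS states SCO1 was not called (log2 fold change -0.20, adjusted p = 0.266).

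At their brightest probe sets COX16 and COX11 followed the order of SCO2, again with no overlap between states. COX16, an assembly factor that acts on the COX2 subunit, read 6719.7 and 7474 in RB-KD OIS cells, 9469.9 and 9429 in Ctrl-KD OIS cells, and 6126 and 6429 in growing cells. It was higher in Ctrl-KD OIS cells than growing cells (log2 fold change 0.59, adjusted p = 0.000425), was lower in RB-KD OIS cells than Ctrl-KD OIS cells (log2 fold change -0.42, adjusted p = 0.00709) and the call between the OIS states ended without RB-KD OIS replicate 1 (-0.34, adjusted p = 0.0526). COX11, which places copper in the COX1 subunit, read 4269.7 and 3992 in RB-KD OIS cells, 5104 and 4892 in Ctrl-KD OIS cells, and 3368 and 3162 in growing cells. COX11 was higher in Ctrl-KD OIS cells than growing cells (log2 fold change 0.61, adjusted p = 0.000381). The fall of COX11 in RB-KD OIS cells (log2 fold change -0.28, adjusted p = 0.0449) was lost whenever any of the 6 arrays was left out, with adjusted p up to 0.173. Among the dimmer COX11 probe sets, 1 was lower in RB-KD OIS cells than Ctrl-KD OIS cells (log2 fold change -0.63, adjusted p = 0.0211) and, against the brightest, also lower than in growing cells (log2 fold change -0.48, adjusted p = 0.0388), with no call in Ctrl-KD OIS versus growing cells (log2 fold change 0.15, adjusted p = 0.506). Another gave log2 fold change -1.24, adjusted p = 0.0499 between the OIS states, and the last gave log2 fold change 0.11, adjusted p = 0.796.

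COX20, a chaperone of newly made COX2, read 1806 and 1882 in RB-KD OIS cells, 3499 and 2636 in Ctrl-KD OIS cells, and 3186 and 2895 in growing cells. The RB-KD OIS arrays were below all others, and the Ctrl-KD OIS and growing arrays overlapped. COX20 was lower in RB-KD OIS cells than Ctrl-KD OIS cells (log2 fold change -0.72, standard error 0.13, adjusted p = 0.00459), but its other bright probe set did not show this (log2 fold change -0.16, adjusted p = 0.352). That probe set read 1333 and 1271 in RB-KD OIS cells, 1525 and 1379 in Ctrl-KD OIS cells, and 3148 and 3439.8 in growing cells, already lower in Ctrl-KD OIS cells than growing cells (log2 fold change -1.18, adjusted p = 2.24e-05). Which of the 2 probe sets follows COX20 mRNA was not tested.

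SURF1 and COX18 went the other way in senescence. SURF1, an early assembly factor whose loss causes Leigh syndrome, read 1389 and 1083 in RB-KD OIS cells, 1605 and 1429 in Ctrl-KD OIS cells, and 2160.3 and 2727 in growing cells. The growing arrays were the highest and all 3 states stood apart. SURF1 was lower in Ctrl-KD OIS cells than growing cells (log2 fold change -0.68, adjusted p = 0.00602), which ended without growing replicate 2 (-0.51, adjusted p = 0.0578), and lower in RB-KD OIS cells than growing cells (log2 fold change -0.98, adjusted p = 0.000918). Between the OIS states it was not called (log2 fold change -0.30, adjusted p = 0.191). COX18, which inserts the COX2 subunit into the membrane, read 929.6 and 813 in RB-KD OIS cells, 973 and 1019 in Ctrl-KD OIS cells, and 1403 and 1321 in growing cells. It too was highest in growing cells, and was lower than there in Ctrl-KD OIS cells (log2 fold change -0.45, adjusted p = 0.0115; -0.41, adjusted p = 0.0921, without growing replicate 1) and in RB-KD OIS cells (log2 fold change -0.65, adjusted p = 0.00197). Averaging all probe sets of a gene ended these calls, the other SURF1 probe set reading only 19.0 to 83.8 and the other COX18 probe set 4.4 to 27.3 over the 6 arrays.

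Of the remaining assembly factors, COX14, which supports synthesis of COX1, was higher in Ctrl-KD OIS cells than growing cells (log2 fold change 0.48, adjusted p = 0.00486; 0.40, adjusted p = 0.0569, without growing replicate 1) and was not called between the OIS states (log2 fold change -0.01, adjusted p = 0.967). COX10, which makes the haem O that COX15 uses, and COX19, a copper factor, were dim and not called. Their intervals were wide, -0.83 to 0.22 and -0.90 to 0.53 for the log2 fold change between the OIS states. COX17, the copper chaperone upstream of SCO1 and SCO2, was read only from a probe set below the array median on all 6 arrays and was not tested. COX7A2L, counted apart from the assembly factors, helps to join complexes III and IV into supercomplexes. It read 9831 and 10621 in RB-KD OIS cells, 11959 and 12809 in Ctrl-KD OIS cells, and 7075 and 7434 in growing cells. The Ctrl-KD OIS arrays were the highest and the growing arrays the lowest. COX7A2L was higher in Ctrl-KD OIS cells than growing cells (log2 fold change 0.77, standard error 0.08, adjusted p = 7.21e-05) and remained so in RB-KD OIS cells (log2 fold change 0.49, adjusted p = 0.00135). Its fall between the OIS states (log2 fold change -0.28, adjusted p = 0.0382) was lost without any 1 of 5 arrays, all but Ctrl-KD OIS replicate 1, with adjusted p up to 0.178.

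**Figure D3:**
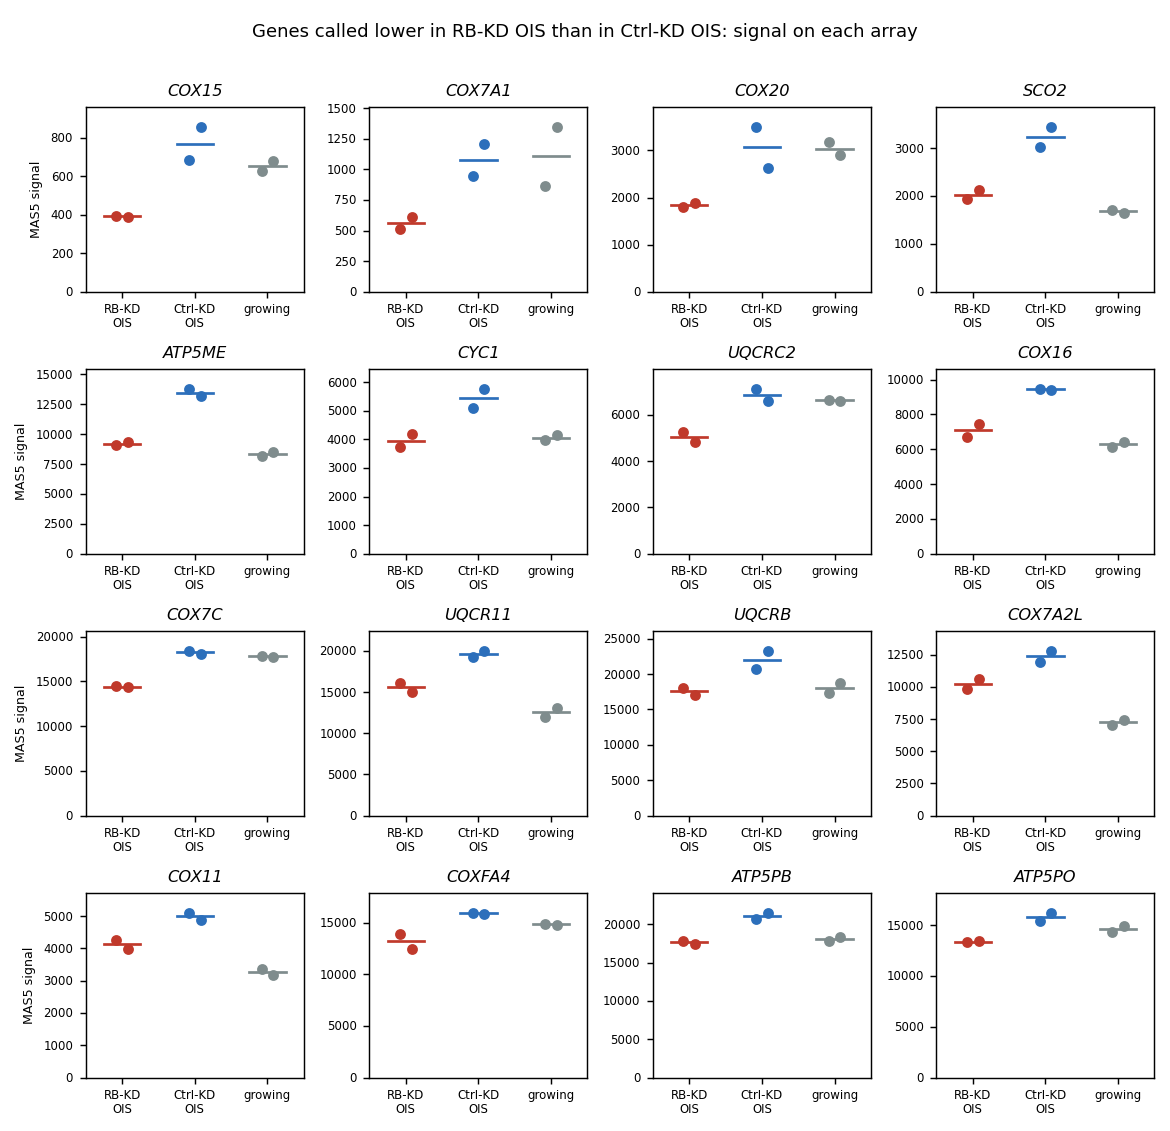
MAS5 signal (y axis, from 0) on each of the 6 arrays for the 16 genes called lower in RB-KD OIS cells than Ctrl-KD OIS cells, ordered by log2 fold change, with a bar at the mean of each state (n = 2). The genes were chosen by this call; the COX15 panel has the RB-KD OIS arrays at 394 and 389.8, below all others, while in the CYC1 panel they overlap the growing arrays.

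In complex III, CYC1, the cytochrome c1 subunit that hands electrons to cytochrome c, read 3723 and 4181 in RB-KD OIS cells, 5099 and 5767 in Ctrl-KD OIS cells, and 3966 and 4139.5 in growing cells. The Ctrl-KD OIS arrays were the highest and the RB-KD OIS and growing arrays overlapped. CYC1 was higher in Ctrl-KD OIS cells than growing cells (log2 fold change 0.42, adjusted p = 0.00716) and lower in RB-KD OIS cells than Ctrl-KD OIS cells (log2 fold change -0.46, adjusted p = 0.00913). The rise ended without growing replicate 1 (0.39, adjusted p = 0.0625) and the fall without RB-KD OIS replicate 1 (-0.38, adjusted p = 0.0678). UQCR11, a small accessory subunit, read 16132 and 15023 in RB-KD OIS cells, 19286 and 20009.9 in Ctrl-KD OIS cells, and 12018 and 13113 in growing cells. Its states did not overlap, with Ctrl-KD OIS the highest (log2 fold change 0.65, adjusted p = 0.000207 against growing cells) and RB-KD OIS cells between. The fall from Ctrl-KD OIS cells (log2 fold change -0.34, adjusted p = 0.0167) lost its call without RB-KD OIS replicate 2 (-0.28). A dimmer UQCR11 probe set gave 0.18 (adjusted p = 0.535) and -0.59 (adjusted p = 0.072) in the same comparisons. In RB-KD OIS versus growing cells it gave -0.42 (adjusted p = 0.151), against 0.31 (adjusted p = 0.0147) at the brightest.

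UQCRC2, one of the large core proteins, read 5244 and 4818 in RB-KD OIS cells, 7116 and 6594 in Ctrl-KD OIS cells, and 6646 and 6600.2 in growing cells. Only the RB-KD OIS arrays stood apart, below both other states. UQCRC2 was lower in RB-KD OIS cells than Ctrl-KD OIS cells (log2 fold change -0.45, standard error 0.08, adjusted p = 0.00518) and than in growing cells (log2 fold change -0.40, adjusted p = 0.00514), and a second bright probe set gave the same direction between the OIS states (log2 fold change -0.50, adjusted p = 0.00341). The other core protein, UQCRC1, was not called in any comparison (log2 fold change 0.22, adjusted p = 0.1 between the OIS states). In RB-KD OIS versus growing cells UQCRC1 narrowly missed the threshold (log2 fold change 0.24, adjusted p = 0.0548). There it passed under median centring (0.35, adjusted p = 0.0134) and where only these 2 states were fitted (adjusted p = 0.0353). UQCRB, a small subunit at the ubiquinone site, was higher in Ctrl-KD OIS cells than growing cells (log2 fold change 0.29, adjusted p = 0.0252) and lower in RB-KD OIS cells than Ctrl-KD OIS cells (log2 fold change -0.33, adjusted p = 0.0248). These UQCRB calls ended without 3 and 5 of the 6 arrays in turn, with adjusted p up to 0.216 and 0.112, while a dimmer UQCRB probe set gave 0.49 (adjusted p = 0.00215) and -0.42 (adjusted p = 0.0119) in the same comparisons. UQCRQ, another small subunit, was higher than in growing cells both in Ctrl-KD OIS cells (log2 fold change 0.43, adjusted p = 0.00202) and in RB-KD OIS cells (log2 fold change 0.34, adjusted p = 0.0077). The call in RB-KD OIS cells ended without growing replicate 1 (0.33, adjusted p = 0.081) and without growing replicate 2 (0.35, adjusted p = 0.0621). UQCR10, also a small subunit, was called only in RB-KD OIS versus growing cells (log2 fold change 0.24, adjusted p = 0.043), a call that ended without any 1 of those 4 arrays (adjusted p up to 0.249). A dimmer UQCR10 probe set read 1653 and 1831 in RB-KD OIS cells, 1175 and 1259 in Ctrl-KD OIS cells, and 976 and 982 in growing cells, and was higher in RB-KD OIS cells than Ctrl-KD OIS cells (log2 fold change 0.52, adjusted p = 0.0104) and than in growing cells (log2 fold change 0.83, adjusted p = 0.000363). UQCRH and UQCRHL share their probe sets with other genes and were not read.

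Cytochrome c itself was higher in both OIS states than in growing cells and was not called between them. CYCS, its somatic gene, read 22631 and 24012 in RB-KD OIS cells, 21919 and 24291 in Ctrl-KD OIS cells, and 14656 and 15491 in growing cells. All 4 OIS arrays lay above both growing arrays, and the RB-KD OIS arrays lay between the Ctrl-KD OIS arrays. CYCS was higher than in growing cells in Ctrl-KD OIS (log2 fold change 0.61, standard error 0.08, adjusted p = 0.00032) and in RB-KD OIS cells (log2 fold change 0.63, standard error 0.08, adjusted p = 0.000354), and the log2 fold change between the OIS states was 0.01 with a 95% interval of -0.17 to 0.20.

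Among complex IV subunits, COX5A, which binds on the matrix side, gave the clearest rise. It read 19088 and 19184 in RB-KD OIS cells, 17148 and 18678 in Ctrl-KD OIS cells, and 12519 and 12906 in growing cells. The RB-KD OIS arrays were the highest and the growing arrays the lowest. COX5A was higher in Ctrl-KD OIS cells than growing cells (log2 fold change 0.49, adjusted p = 0.000773) and in RB-KD OIS cells than growing cells (log2 fold change 0.59, adjusted p = 0.000331), with no call between the OIS states (log2 fold change 0.10, adjusted p = 0.417). COX6A1, COX6B1 and COX7B were the other subunits that Ctrl-KD OIS cells had higher than growing cells, by 0.27 to 0.39 on the log2 scale, and each of these calls ended without growing replicate 1 (adjusted p = 0.174, 0.0645 and 0.069). COX6A1 was also lost without Ctrl-KD OIS replicate 2 (adjusted p = 0.0692) and without growing replicate 2 (adjusted p = 0.105). COX7C, a small subunit, read 14479.6 and 14328 in RB-KD OIS cells, 18411 and 18084 in Ctrl-KD OIS cells, and 17831 and 17737 in growing cells. The RB-KD OIS arrays were the lowest, and COX7C was lower there than in Ctrl-KD OIS (log2 fold change -0.34, adjusted p = 0.00826) and in growing cells (log2 fold change -0.30, adjusted p = 0.00836). The call against growing cells ended without growing replicate 1 (adjusted p = 0.0889) and without growing replicate 2 (adjusted p = 0.0822). Its other probe sets gave the same direction between the OIS states without passing the test (log2 fold change -0.18, adjusted p = 0.31, and log2 fold change -0.25, adjusted p = 0.0983).

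Several complex IV subunits exist in tissue isoforms, and COX7A1, the form of heart and skeletal muscle, was the isoform that fell with RB depletion. It read 510.5 and 613 in RB-KD OIS cells, 941 and 1209 in Ctrl-KD OIS cells, and 867 and 1345 in growing cells. Both RB-KD OIS arrays were below all others, while the Ctrl-KD OIS and growing arrays overlapped. COX7A1 was 0.524 times its Ctrl-KD OIS level in RB-KD OIS cells (log2 fold change -0.93, standard error 0.21, adjusted p = 0.0128) and was also lower than in growing cells (log2 fold change -0.95, adjusted p = 0.00677). The call between the OIS states ended without RB-KD OIS replicate 1 (-0.80, adjusted p = 0.0934) and without Ctrl-KD OIS replicate 2 (-0.75, adjusted p = 0.0817), and that against growing cells without RB-KD OIS replicate 1 (-0.82, adjusted p = 0.0563) and without growing replicate 2 (-0.63, adjusted p = 0.0501). Summed signal of 3 muscle markers (MYH7, ACTN2 and CKM) was 75.5 to 94.4 in RB-KD OIS cells, 86.0 to 133.4 in Ctrl-KD OIS cells and 24.2 to 77.8 in growing cells, none of them above the array median on all arrays.

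Its widespread counterpart COX7A2 read 24487 and 24132 in RB-KD OIS cells, 22827 and 23610.2 in Ctrl-KD OIS cells, and 20193 and 20504 in growing cells. The growing arrays were the lowest, and COX7A2 was called higher only in RB-KD OIS versus growing cells (log2 fold change 0.26, adjusted p = 0.0193), a call that ended without either RB-KD OIS array or either growing array (adjusted p up to 0.16). COX4I1, the common form of subunit 4, read 24799.8 and 22596 in RB-KD OIS cells, 19945 and 22195 in Ctrl-KD OIS cells, and 18303 and 18694 in growing cells. Growing arrays were again the lowest, and at this probe set the same single comparison was called (log2 fold change 0.36, adjusted p = 0.00958), which ended without RB-KD OIS replicate 1 (adjusted p = 0.0667), growing replicate 1 (adjusted p = 0.0848) or growing replicate 2 (adjusted p = 0.0638). Another bright COX4I1 probe set was also called in Ctrl-KD OIS versus growing cells (log2 fold change 0.29, adjusted p = 0.0257). COX4I2, the oxygen-regulated form of subunit 4, read 109.8 and 128 in RB-KD OIS cells, 87.1 and 63.5 in Ctrl-KD OIS cells, and 105 and 96.3 in growing cells. Its RB-KD OIS arrays were the highest, but at these low signals the spread was wide and no comparison was called (95% interval -0.10 to 1.45 between the OIS states).

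COX6A1 read 19390.4 and 19110.4 in RB-KD OIS cells, 19397 and 21598 in Ctrl-KD OIS cells, and 16684 and 17244 in growing cells, with the growing arrays the lowest. COX6A2, its form in striated muscle, read 88.7 and 58.8 in RB-KD OIS cells, 82.2 and 78.8 in Ctrl-KD OIS cells, and 109 and 37.8 in growing cells, and all states overlapped. COX6B1 read 10606 and 10627 in RB-KD OIS cells, 10642 and 11614 in Ctrl-KD OIS cells, and 8646 and 8803 in growing cells, again with the growing arrays below the rest. Its testis form COX6B2 read 47.7 and 37.9 in RB-KD OIS cells, 31.1 and 47.2 in Ctrl-KD OIS cells, and 47 and 37.6 in growing cells and failed the filter on low signals. COX7B read 17142 and 14868 in RB-KD OIS cells, 16705 and 15955 in Ctrl-KD OIS cells, and 12155 and 12759 in growing cells, with growing cells the lowest. The testis forms COX7B2 and COX8C, with signals of 3.7 to 30.6 and of 1.3 to 19.4 over the 6 arrays, failed the same filter. COX8A, the common form of subunit 8, read 18016 and 18766 in RB-KD OIS cells, 16454 and 18534 in Ctrl-KD OIS cells, and 17081 and 17322 in growing cells, and no comparison was called.

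The most changed gene was COXFA4L3, also known as NMES1, which encodes a relative of the complex IV subunit COXFA4 and is known to be induced in inflamed cells. It read 5499 and 6461 in RB-KD OIS cells, 8278 and 7349 in Ctrl-KD OIS cells, and 83.7 and 132.8 in growing cells. Growing cells were far below both OIS states, which did not overlap. The log2 fold change was 6.21 in Ctrl-KD OIS versus growing cells (standard error 0.19, adjusted p = 5.92e-08) and 5.82 in RB-KD OIS versus growing cells (adjusted p = 9.69e-08). Between the OIS states it was not called (log2 fold change -0.39, adjusted p = 0.188), but it passed where only these 2 states were fitted (adjusted p = 0.0453). COXFA4 itself read 13940.5 and 12435 in RB-KD OIS cells, 15963 and 15864 in Ctrl-KD OIS cells, and 14858 and 14798 in growing cells. The RB-KD OIS arrays were the lowest (log2 fold change -0.27, adjusted p = 0.0376 against Ctrl-KD OIS cells), a call that ended without any 1 of 5 arrays, all but RB-KD OIS replicate 1, with adjusted p up to 0.179. COXFA4L2 failed the filter on low signals.

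**Figure D4:**
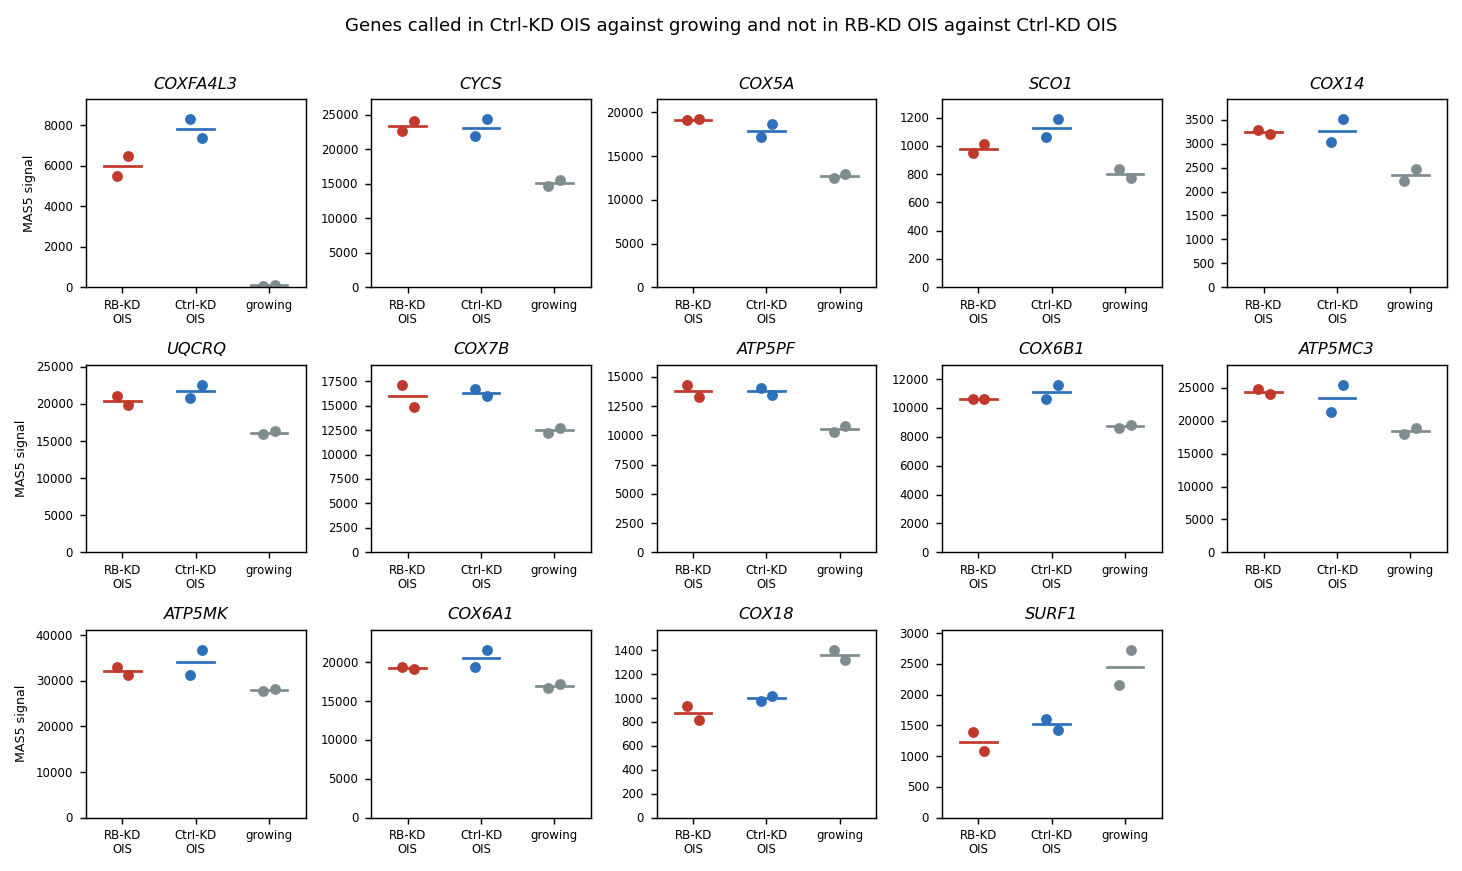
MAS5 signal (y axis, from 0) on each array for the 14 genes called in Ctrl-KD OIS versus growing cells and not called between the OIS states, with a bar at the mean of each state (n = 2). The genes were chosen by these calls; in the CYCS panel the RB-KD OIS arrays lie between the Ctrl-KD OIS arrays, and COX18 and SURF1 have the growing arrays on top.

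In ATP synthase, 3 of 9 genes of the membrane part and stalk and 0 of 5 of the catalytic F1 part were lower in RB-KD OIS cells than Ctrl-KD OIS cells, beside 11.6% of all genes. The difference between the parts was not tested. ATP5F1A, ATP5F1B, ATP5F1C, ATP5F1D and ATP5F1E encode the F1 subunits alpha, beta, gamma, delta and epsilon. Their log2 fold changes lay between -0.22 and 0.19 in Ctrl-KD OIS versus growing cells and between -0.11 and 0.10 between the OIS states, with 0 calls by limma. At an unadjusted p under 0.05 there was ATP5F1D in Ctrl-KD OIS versus growing cells and none of the 5 between the OIS states. ATP5F1D was called in RB-KD OIS versus growing cells (log2 fold change -0.29, adjusted p = 0.0381), and this ended without any 1 of the RB-KD OIS and growing arrays (adjusted p up to 0.268). A dimmer ATP5F1D probe set went the other way (log2 fold change 0.68, adjusted p = 0.0126; log2 fold change 0.54, adjusted p = 0.032 for Ctrl-KD OIS versus growing cells). Under quantile normalization 3 F1 genes were lower in RB-KD OIS cells than growing cells, ATP5F1C (adjusted p = 0.00866) and ATP5F1E (adjusted p = 0.0198) among them, and under median centring 0.

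ATP5ME, subunit e of the membrane part, read 9057 and 9331 in RB-KD OIS cells, 13786 and 13172 in Ctrl-KD OIS cells, and 8158 and 8534 in growing cells. The Ctrl-KD OIS arrays were the highest and the growing arrays the lowest. ATP5ME was 1.61-fold higher in the Ctrl-KD OIS state than growing cells (log2 fold change 0.69, standard error 0.08, adjusted p = 8.77e-05) and lower in RB-KD OIS cells than Ctrl-KD OIS cells (log2 fold change -0.55, standard error 0.08, adjusted p = 0.00107), and RB-KD OIS and growing cells differed by 0.14 (adjusted p = 0.185). A dimmer ATP5ME probe set gave the same directions (log2 fold change 0.45, adjusted p = 0.0418, and log2 fold change -0.38, adjusted p = 0.118). ATP5PB, the stalk subunit b, and ATP5PO, the stalk subunit OSCP, were also lower in RB-KD OIS cells than Ctrl-KD OIS cells (log2 fold change -0.26, adjusted p = 0.0315, and log2 fold change -0.24, adjusted p = 0.0415). Both of these calls ended without any 1 of 5 arrays, all but Ctrl-KD OIS replicate 1, with adjusted p up to 0.109 and 0.135. Between the OIS states a dimmer ATP5PO probe set gave -0.52 (adjusted p = 0.0423) and a dimmer ATP5PB probe set -0.44 (adjusted p = 0.372). In Ctrl-KD OIS versus growing cells these gave 0.72 (adjusted p = 0.00447) and -0.41 (adjusted p = 0.333).

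ATP5PF, the coupling factor F6, was higher than in growing cells in Ctrl-KD OIS (log2 fold change 0.39, adjusted p = 0.00368) and in RB-KD OIS cells (log2 fold change 0.39, adjusted p = 0.00418), both calls ending without growing replicate 1 (adjusted p = 0.054 and 0.0591). The c subunit of the rotor ring has several genes with the same mature protein. ATP5MC1 read 2842 and 3384 in RB-KD OIS cells, 3296 and 3716 in Ctrl-KD OIS cells, and 3366 and 3189 in growing cells, with the states overlapping and no call. ATP5MC2 read 8816 and 8686 in RB-KD OIS cells, 9368 and 10448 in Ctrl-KD OIS cells, and 8926 and 9395 in growing cells, and its RB-KD OIS arrays were the lowest with no call (log2 fold change -0.18, adjusted p = 0.164 against Ctrl-KD OIS cells). ATP5MC3 read 24777 and 23982 in RB-KD OIS cells, 21383 and 25467 in Ctrl-KD OIS cells, and 17977 and 18940.5 in growing cells, with the growing arrays the lowest. It was called higher in Ctrl-KD OIS (log2 fold change 0.34, adjusted p = 0.0175) and in RB-KD OIS cells (log2 fold change 0.40, adjusted p = 0.00858) than in growing cells, the first call ending without 3 of the 6 arrays (adjusted p up to 0.134) and the second without 2 (adjusted p up to 0.0819). A second bright ATP5MC3 probe set gave 0.54 (adjusted p = 0.000338) and 0.37 (adjusted p = 0.00411) in the same comparisons. A dimmer one gave 0.78 (adjusted p = 0.0197) and 0.29 (adjusted p = 0.356).

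ATP5IF1, the inhibitor of ATP synthase that acts when the gradient is lost, was not called in any comparison at its brightest probe set. Between the OIS states its log2 fold change was 0.22 (adjusted p = 0.0798). Under quantile normalization it passed there as higher in RB-KD OIS cells (0.24, adjusted p = 0.0496). In RB-KD OIS versus growing cells it passed as higher under median centring (0.29, adjusted p = 0.0305). Averaging its probe sets gave 0.40 (adjusted p = 0.0135) in the same comparison. The dimmer ATP5IF1 probe sets gave 0.86 (adjusted p = 0.00812) and 0.17 (adjusted p = 0.259) in that comparison. Between the OIS states they gave 0.54 (adjusted p = 0.0847) and 0.16 (adjusted p = 0.355). ATP5MK, a small accessory subunit, was higher in Ctrl-KD OIS cells than growing cells (log2 fold change 0.28, adjusted p = 0.0327; adjusted p up to 0.174 without Ctrl-KD OIS replicate 2, growing replicate 1 or growing replicate 2). ATP5MF was read only from a probe set at 2.6 to 15.8 and was not tested. In several genes a dimmer probe set gave a larger change, such as ATP5MG in Ctrl-KD OIS versus growing cells (log2 fold change 0.18, adjusted p = 0.116 at its brightest probe set; log2 fold change 1.16, adjusted p = 2.55e-05 at a dimmer one). Which probe set follows the mRNA better was not tested.

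Promoter windows were taken from RefSeq on GRCh38.p14, 250 bases before to 50 after the start of each gene, and 49 of the 64 genes had one. Letters of factors known for respiratory genes were searched on both strands. The NRF1 core GCGCATGC was present in 9 of the 49 windows (18.4%), against 3.05% of all 35116 windows, and the ETS core CCGGAAGT bound by GABP in 12 (24.5%), against 4.14%. The YY1 letters AAGATGGC were in 6 (12.2%, against 2.89%), and the SP1 letters GGGCGG in 29 (59.2%, against 45.0%). The E2F letters TTTCCCGC and TTTGGCGC were in 2 (4.08%, against 1.63%) and 1 (2.04%, against 0.652%). Every motif searched thus had a higher share among the 49 windows. The 35116 windows include noncoding genes and were not matched to the 49 for expression or base content, so the shares are not like for like. The windows of COX10 and COX10-DT overlap, and the NRF1 letters on the 2 strands overlap each other in ATP5F1C, COX17 and COX18. Of the 16 genes lower in RB-KD OIS cells than Ctrl-KD OIS cells, 11 had a window. The NRF1 letters were in that of ATP5ME, the ETS letters in those of COX15 and UQCR11, the YY1 letters in those of ATP5PB and ATP5PO, and the SP1 letters in 7 (ATP5PB, ATP5PO, COX16, COX20, COX7A2L, COX7C and UQCR11). The E2F letters were in COX7B, COX18 and COX8A, none of which was called between the OIS states. A match is a run of letters and does not show binding.

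Windows of 5 genes are printed, from start to end along the gene, because they stand for the patterns above: ATP5ME, UQCR11 and COX16 (higher in Ctrl-KD OIS cells than growing cells, lower with RB depletion), COX15 (called, at its brightest probe set, only where RB was depleted) and CYCS (higher in both OIS states). Capitals mark the NRF1 letters (ATP5ME and CYCS) or the ETS letters (UQCR11 and COX15), and COX16 held neither. ATP5ME lies at chr4:674227-674526, minus strand; UQCR11 at chr19:1605413-1605712, minus strand; COX16 at chr14:70359634-70359933, minus strand; COX15 at chr10:99732078-99732377, minus strand; and CYCS at chr7:25125211-25125510, minus strand. The capitals begin at position -78 from the start in ATP5ME, -117 in UQCR11, -8 in COX15 and -169 in CYCS, where the letters are read on the opposite strand.
ATP5ME: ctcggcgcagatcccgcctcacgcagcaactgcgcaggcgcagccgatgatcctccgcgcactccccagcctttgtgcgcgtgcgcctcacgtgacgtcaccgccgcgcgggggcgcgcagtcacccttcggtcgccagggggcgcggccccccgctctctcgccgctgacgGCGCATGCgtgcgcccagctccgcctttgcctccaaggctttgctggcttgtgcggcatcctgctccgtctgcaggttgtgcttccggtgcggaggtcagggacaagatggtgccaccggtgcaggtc
UQCR11: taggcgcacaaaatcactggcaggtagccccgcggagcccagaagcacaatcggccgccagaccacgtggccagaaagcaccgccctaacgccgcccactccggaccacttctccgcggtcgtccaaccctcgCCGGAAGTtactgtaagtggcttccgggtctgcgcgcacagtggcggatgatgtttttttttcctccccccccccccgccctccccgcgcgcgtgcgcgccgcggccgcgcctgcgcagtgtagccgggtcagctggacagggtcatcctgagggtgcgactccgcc
COX16: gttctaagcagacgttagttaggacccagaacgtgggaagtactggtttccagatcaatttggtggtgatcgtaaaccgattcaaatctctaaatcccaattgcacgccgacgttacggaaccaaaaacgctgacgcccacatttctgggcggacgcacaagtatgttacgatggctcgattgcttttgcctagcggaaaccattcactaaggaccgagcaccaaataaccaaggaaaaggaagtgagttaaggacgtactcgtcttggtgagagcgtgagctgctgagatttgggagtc
COX15: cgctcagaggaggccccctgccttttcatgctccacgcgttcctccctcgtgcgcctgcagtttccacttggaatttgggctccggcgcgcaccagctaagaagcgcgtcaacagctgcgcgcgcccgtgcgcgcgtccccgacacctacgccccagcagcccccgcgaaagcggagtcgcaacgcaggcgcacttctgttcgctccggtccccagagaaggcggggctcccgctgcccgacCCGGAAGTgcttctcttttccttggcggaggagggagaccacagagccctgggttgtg
CYCS: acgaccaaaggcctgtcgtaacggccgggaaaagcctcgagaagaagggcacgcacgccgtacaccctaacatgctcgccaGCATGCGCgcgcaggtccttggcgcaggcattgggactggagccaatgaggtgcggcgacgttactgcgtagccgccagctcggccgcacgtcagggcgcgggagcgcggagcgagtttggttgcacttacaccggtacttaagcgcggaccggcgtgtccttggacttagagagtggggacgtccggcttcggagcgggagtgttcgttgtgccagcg

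Other genes of the same machinery were counted from lists, beside 11.6% lower and 12.6% higher of all genes between the OIS states and 20.5% higher and 21.2% lower of all genes in Ctrl-KD OIS versus growing cells. Of 28 further factors for complexes III to V, 6 were lower and 3 higher in RB-KD OIS cells than Ctrl-KD OIS cells, and 14 were higher and 2 lower in Ctrl-KD OIS cells than growing cells. LYRM7, which helps to place the iron-sulfur subunit in complex III, read 1293 and 1487 in RB-KD OIS cells, 2417 and 2210.1 in Ctrl-KD OIS cells, and 1375 and 1369 in growing cells (log2 fold change -0.74, adjusted p = 0.00141 between the OIS states). COA6, a copper factor of complex IV, read 2238 and 2102 in RB-KD OIS cells, 2865 and 2891 in Ctrl-KD OIS cells, and 1624 and 1624 in growing cells (log2 fold change -0.41, adjusted p = 0.0104). Both had the Ctrl-KD OIS arrays above all others. TMEM70, needed to assemble ATP synthase, went against them and read 9465 and 9723 in RB-KD OIS cells, 6724 and 7561 in Ctrl-KD OIS cells, and 3830.1 and 3350.5 in growing cells, highest in RB-KD OIS cells (log2 fold change 0.43, adjusted p = 0.0121; log2 fold change 0.99, adjusted p = 4.09e-05 for Ctrl-KD OIS versus growing cells).

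The mitochondrially encoded core subunits COX1, COX2 and COX3 had 0 calls by limma and none at an unadjusted p under 0.05, with log2 fold changes of -0.18 to 0.14 over the 3 comparisons. Beside the same shares of all genes, of the 5 complex II genes read, 2 were higher and 1 lower in Ctrl-KD OIS cells than growing cells, and 1 was higher and 2 lower in RB-KD OIS cells than Ctrl-KD OIS cells. SDHAF2, which attaches the flavin cofactor of complex II, was 0.86 on the log2 scale in Ctrl-KD OIS versus growing cells (adjusted p = 0.000216) and -0.36 between the OIS states (adjusted p = 0.0397). Of 13 tested regulators of mitochondrial gene expression, beside these shares, 3 were lower and 0 higher (0 also at an unadjusted p under 0.05) in RB-KD OIS cells than Ctrl-KD OIS cells, and 8 were higher and 1 lower in Ctrl-KD OIS cells than growing cells. The 3 were POLRMT, the mitochondrial RNA polymerase (log2 fold change -0.64, adjusted p = 0.0155), TEFM, its elongation factor (log2 fold change -0.65, adjusted p = 0.00181), and TFB2M, its initiation factor (log2 fold change -0.36, adjusted p = 0.0232). NRF1 was the 1 lower in Ctrl-KD OIS cells (log2 fold change -0.60, adjusted p = 0.0498), and PPARGC1A, a coactivator of these genes, failed the filter on low signals. The 8 higher include PPARGC1B, which read 141.8 and 147.6 in Ctrl-KD OIS cells and 37.9 and 18.8 in growing cells. It lay above the array median on the OIS arrays only and so passed the filter through the states where it was high.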

How the data were processed

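The authors hybridised RNA from 6 cultures, 2 per state, to Affymetrix U133 Plus 2.0 arrays and processed them with MAS5 in Affymetrix Expression Console (versions not given in the sources used here). The deposited values are linear signal intensities per probe set, scaled per array by MAS5, with medians of 46 to 51.8 and a trimmed mean of 496.15 to 496.46.

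From these, log2 signals were tested with limma 3.58.1 in R 4.3.3 (array means per state, prior variance with a trend, Benjamini-Hochberg over 13398 genes). A gene was read from its brightest probe set that names it alone in the platform annotation, and was tested if 2 or more of the 6 arrays read it above their median. Of 54613 probe sets, 41091 named 1 gene, 1801 several and 11721 none. With 2 arrays against 2 an exact permutation test cannot go below p = 0.333, so calls rest on the spread pooled over genes. The number of arrays limits the precision. Replicate arrays correlated at 0.971 to 0.974. Arrays with the same replicate number did not deviate together (correlations of 0.035, 0.0102 and -0.00384), so no block was used.

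Members and lists were chosen with earlier results of these data known. Every member may be named; per-array values are given for SCO2, COX15, COX7A1, the 10 largest called changes in each direction between the OIS states and between Ctrl-KD OIS and growing cells, and tissue isoforms, with a few further members and dimmer probe sets added after their values were seen. Alternatives were other scalings, filters, probe set rules, fits and leaving out each array. Promoter windows were RefSeq sequences.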

Additional observations from a re-analysis of the deposited data

How the results depend on the processing

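The counts of called genes were recomputed under 17 alternative settings (6 that each left out 1 array and 11 others). Leaving out 1 array gave 8 to 14 genes lower in RB-KD OIS cells than Ctrl-KD OIS cells (main count 16), 12 to 27 higher and 1 to 2 lower in Ctrl-KD OIS cells than growing cells (21 and 2), and 5 to 20 higher and 5 to 8 lower in RB-KD OIS cells than growing cells (16 and 8). With one prior variance for all genes (no trend), 3 genes were lower in RB-KD OIS cells than Ctrl-KD OIS cells. The other counts were then 14 higher and 1 lower in Ctrl-KD OIS cells than growing cells, and 6 higher and 5 lower in RB-KD OIS cells than growing cells. The main count of 16 became 11 under median centring, 11 with no filter and 11 where only the OIS states were fitted. Not every count is given here. With the mean of all probe sets, 7 genes were lower and 1 higher (UQCR10, 0.35, adjusted p = 0.0314) in RB-KD OIS cells than Ctrl-KD OIS cells, 1 was lower in Ctrl-KD OIS cells than growing cells, and 4 were lower in RB-KD OIS cells than growing cells. Under that rule the sign turned for COX6A1 (-0.69), COX20 (-0.62) and ATP5PB (-0.094) in Ctrl-KD OIS versus growing cells, and for UQCR11 (-0.052) and ATP5F1D (0.19) in RB-KD OIS versus growing cells. By the main rule COX20 had stood at 2e-04. The averages took in a COX6A1 probe set that read only 1.5 to 37.6 over the 6 arrays. They also took in a COX20 probe set, at 34.4 to 76.2, that is listed with a transcript of another gene. Under quantile normalization 1 gene was higher in RB-KD OIS cells than Ctrl-KD OIS cells (ATP5IF1), and 15 were lower in RB-KD OIS cells than growing cells. The cause of these shifts was not tested. The replicate block gave 15 genes lower between the OIS states. It gave 20 higher and 2 lower in Ctrl-KD OIS cells than growing cells, and 16 higher and 8 lower in RB-KD OIS cells than growing cells. The labels do not say whether the replicate numbers pair the samples. Called under all 17 settings were 3 of the 16 genes between the OIS states (COX15, SCO2 and ATP5ME), 10 of 23 in Ctrl-KD OIS versus growing cells and 6 of 24 in RB-KD OIS versus growing cells.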

Other observations

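Over 42 further probe sets of 24 genes, the sign matched that of the called gene in 15 of 18 between the OIS states, in 12 of 16 for Ctrl-KD OIS versus growing cells and in 22 of 26 for RB-KD OIS versus growing cells. Of these matches, 8, 9 and 12 were themselves called when each probe set was tested on its own. The share of matches over all genes was not computed. ATP5MJ, a small ATP synthase subunit, was not called at its brightest probe set in Ctrl-KD OIS versus growing cells (0.22, adjusted p = 0.051), while a dimmer one gave 0.56 (adjusted p = 0.000723). What sets these probe sets apart was not tested.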
